A study of Mus musculus with 15 samples.

Results

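Translation initiation factors are the proteins that bring the ribosome to the start codon of an mRNA, and 52 of their genes were followed in the gastrocnemius of aged mice. Members were the protein-coding mouse genes whose symbol begins with Eif and a digit from 1 to 6 and whose mean count over the 15 mice was at least 10. Of 56 genes with such a symbol among the 55450 counted, 52 met the rule, made up of 46 factors, 4 kinases of eIF2 and 2 proteins that bind eIF4E. All 52 passed edgeR's filter on low counts, which left 16920 genes to be tested. The member closest to the limit was Eif5a2, with a mean count of 51.2. Just outside it lay Eif4ebp3, another eIF4E-binding protein, at 8.0. Eif4a3l1 had a mean count of 6.53, Eif4e1b of 1.0, and the Y-linked Eif2s3y had 0 counts in each of these female mice.

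RNA sequencing was done on polyadenylated RNA from powdered whole gastrocnemius, with 1 mouse per library. All mice were female, of the strain C57BL/6JN and older than 17 months at entry, and none carried a genetic modification. The labels' robust mice are called Low here (no more than 1 frailty marker present) and the frail mice High (2 or more present), a split that the study made after the tissue had been taken, with cut-offs set within the cohort. Low Control (mice D8, D9, D11 and D98) and High Control (D23, D25 and D67) stayed sedentary in their cages. Low Run (D57, D61, D66 and D68) and High Run (D49, D52, D53 and D62) ran downhill on 2 consecutive days, in 10 stages on a treadmill tilted by 22 degrees and moving at 13 m/min, and were sampled 24 h after the last bout. The total count per mouse ran from 19395125 to 30699216, and the rarest member, Eif5a2, had at least 28 counts in every mouse. Values per mouse are given below in the order in which the mice are listed here, as CPM, that is counts brought to a common library size with edgeR's TMM factors. In bulk muscle, a lower value from fewer cells of a type and one from less RNA per cell cannot be told apart.

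Initiation begins when eIF2, loaded with GTP, carries the initiator tRNA to the small ribosomal subunit, while eIF1, eIF1A, eIF3 and eIF5 shape that complex. The cap-binding protein eIF4E, the scaffold eIF4G and the helicase eIF4A then bring the complex to the capped end of the mRNA, and eIF5B joins the large subunit at the start codon. Muscle tunes this machinery at a pair of points. One is the set of 4E-binding proteins, which compete with eIF4G for eIF4E until mTORC1 phosphorylates them. The other is phosphorylation of eIF2 by its kinases, which blocks the exchange factor eIF2B and favours translation of Atf4.

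Promoters of the members were examined for the E-box CACGTG, the letters bound by Myc and other basic helix-loop-helix factors. RefSeq promoters on GRCm38.p6, from 250 bases before to 50 bases after a start listed for the gene, matched 42 of the 52 members. CACGTG, which reads the same on both strands and has the core letters ACGT in common with TGACGTCA below, was present for 10 of these 42 members (23.8%), compared to 8.09% of the 27025 genes with a promoter. Those members were Eif1b, Eif3a, Eif3f, Eif3k, Eif4a1, Eif4e, Eif4g1, Eif4h, Eif5a and Eif5a2. The motif TGATGNAA, a core of the element bound by C/EBP and Atf4 dimers, was found on either strand for 1 member, Eif2s3x (2.38% compared to 4.51% of genes), and the cyclic AMP response element TGACGTCA for 0 members (2.03% of genes). Such a match is a description of the letters and not of a bound site. The 250 bases before the start are shown for Eif4e and Eif4g1, because these genes encode the protein that recognises the cap and the scaffold it binds, and because each holds the E-box, in capitals. The Eif4e stretch lies at chr3:138527018-138527267 on the plus strand, with the E-box beginning 228 and 64 bases before the start. The Eif4g1 stretch lies at chr16:20672477-20672726 on the plus strand, with the E-box beginning 54 bases before the start and a further copy beginning 15 bases after it, outside the stretch shown. Both stretches lie inside the GENCODE span of their gene, which begins at chr3:138526179 for Eif4e and chr16:20668313 for Eif4g1. The start meant here is thus an internal one for each gene.
Eif4e: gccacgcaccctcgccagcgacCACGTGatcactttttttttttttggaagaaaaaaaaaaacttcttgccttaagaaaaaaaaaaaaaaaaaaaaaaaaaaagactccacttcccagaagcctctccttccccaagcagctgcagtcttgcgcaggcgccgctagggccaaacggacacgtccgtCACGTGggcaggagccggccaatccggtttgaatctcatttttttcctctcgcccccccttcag
Eif4g1: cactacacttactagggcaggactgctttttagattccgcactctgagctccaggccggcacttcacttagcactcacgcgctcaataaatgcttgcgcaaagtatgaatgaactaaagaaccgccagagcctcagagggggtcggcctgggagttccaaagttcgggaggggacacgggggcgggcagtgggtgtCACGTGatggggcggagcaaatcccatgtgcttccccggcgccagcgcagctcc

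Levels were compared between genes as CPM per kilobase of exon, averaged over the 15 mice. Eif1, which guards start codon choice, stood highest at 150.5 CPM per kilobase. Eif5a, which carries the hypusine residue and helps the ribosome past difficult peptide bonds, followed at 145 and Eif4g1 at 102. Eif4b, a helper of the helicase, had 81.0 and Eif4a2, one of its isoforms, had 70.6. The mRNA of the repressor Eif4ebp2 stood at 61.99 CPM per kilobase, above the 11.4 of its target Eif4e. At the other end lay the eIF2 kinases Eif2ak4 (1.22), Eif2ak3 (1.14) and Eif2ak2 (0.925), and Eif5a2 (0.400), the minor isoform of Eif5a. The next lowest was Eif2b3, a subunit of eIF2B, at 3.13. The kinase Eif2ak1, which senses haem, was the exception among the kinases at 13.6 CPM per kilobase. The level given for Eif4a1 is uncertain, since the processed pseudogene Eif4a-ps4 on chromosome 1 held a mean of 1628 counts beside 700 for Eif4a1 itself and reads of near-identical copies may be divided between them. Counts on Eif1-ps1, Eif1-ps2, Eif3s6-ps2 and Eif5al3-ps, with means of 386, 366, 301 and 248, place the same limit on Eif1, Eif3e and Eif5a, and Eif3j1 and Eif3j2 are close copies of one another.

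**Figure D1:**
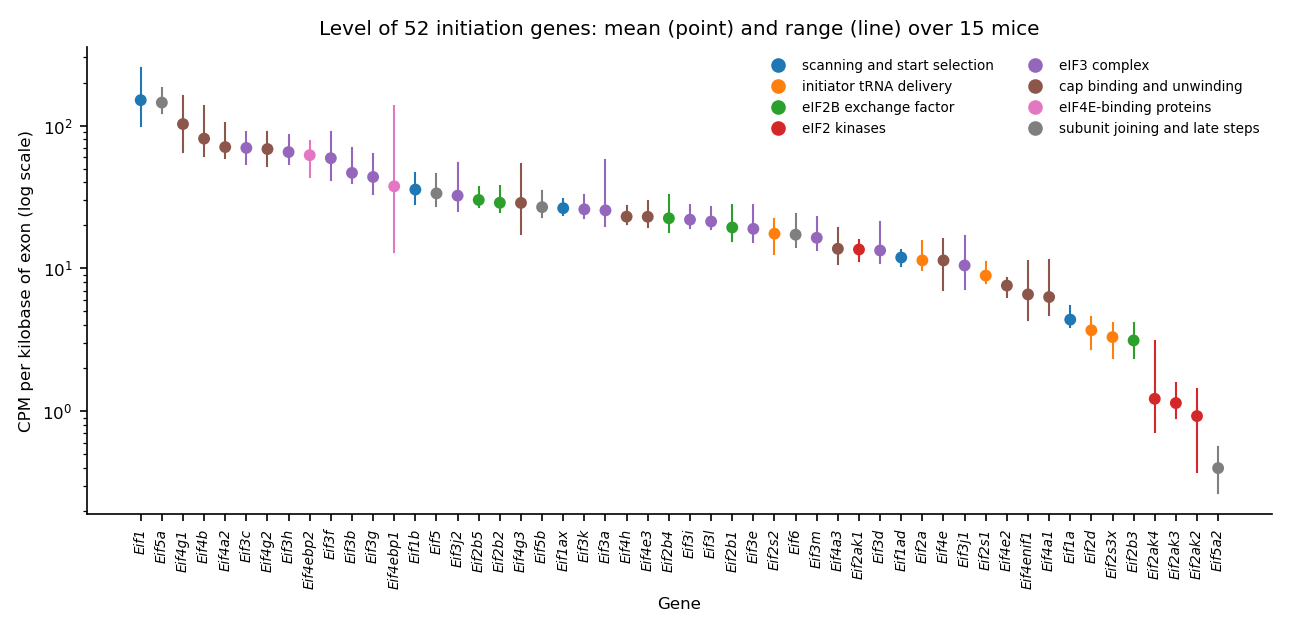
Level of each of the 52 initiation genes in CPM per kilobase of exon on a log axis, ordered from high to low, with the mean as a point, the range over 15 mice as a line and the colour giving the role. Eif1 stands highest at 150.5 and Eif5a2 lowest at 0.400, and the line of Eif4ebp1 is long because mice D9 and D62 lie far above the others.

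A few libraries stood apart from the rest and touch most results below. Low Control mouse D9 and High Run mouse D62 lay at -90.3 and -58.1 on the first principal component of all genes (27.9% of the variance), where the other mice lay between -19.7 and 27.8. These 2 mice held the 2 highest values of all 15 for 24 of the 52 members, compared to 12.5% of all tested genes, and the 2 lowest for Eif4e alone (12.3% of all tested genes). The median member lay 0.33 above its mean over all mice on the log2 scale in D9 and 0.30 above it in D62, compared to -0.05 and -0.02 for the median of all genes. In a separate pattern, mice D57 and D68 (Low Run) and D53 (High Run) had low counts on long transcripts, with the genes above the median exon length of 3833 bases lying 0.24, 0.24 and 0.27 below the shorter genes on the log2 scale. They held the 3 lowest values for Eif2ak4, Eif2s3x, Eif4enif1, Eif4g1 and Eif4g2 (5 of 52, compared to 6.04% of all genes), and the 3 highest for Eif2b2, Eif3k, Eif4e and Eif5a (4 of 52, compared to 4.14%). The summed level of 8 muscle fibre markers ran from 104640 CPM in D62 to 170655 CPM in D8, without overlap between High Run and High Control mice, and of the 10 cell type marker lists none held a gene at 0 in every mouse. The 5 erythroid markers summed to 3809 CPM in D53 and 2383 CPM in D11, against 1314 CPM or less in every other mouse, and the 3 neutrophil markers to 318 CPM in D68 against 46.8 CPM or less in the others. D62 had the highest sums of the 3 satellite cell markers (73.3 CPM, against 48.6 or less) and the 3 Schwann cell markers (272 CPM, against 172 or less) and the lowest of the 5 fibroblast markers (545 CPM, against 677 or more), and D61 the highest of the 4 T and B cell markers (17.9 CPM, against 3.66 or less). High Control mouse D25 had the highest sum of the 3 adipocyte markers (260.8 CPM, against 167.1 or less). D49 had the highest of the 5 macrophage markers (120.3 CPM, against 91.25 or less). The 4 endothelial markers were lowest in D57 and D53 (158.0 and 160.9 CPM, against 183.6 or more). The part of these differences in the results on initiation factors was not tested. Counts are therefore given with and without D9 and D62, and with and without D53, D57 and D68. Leaving out D53, D57 and D68 keeps only D61 and D66 in Low Run, so p-values in that setting also rest on fewer mice.

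**Figure D2:**
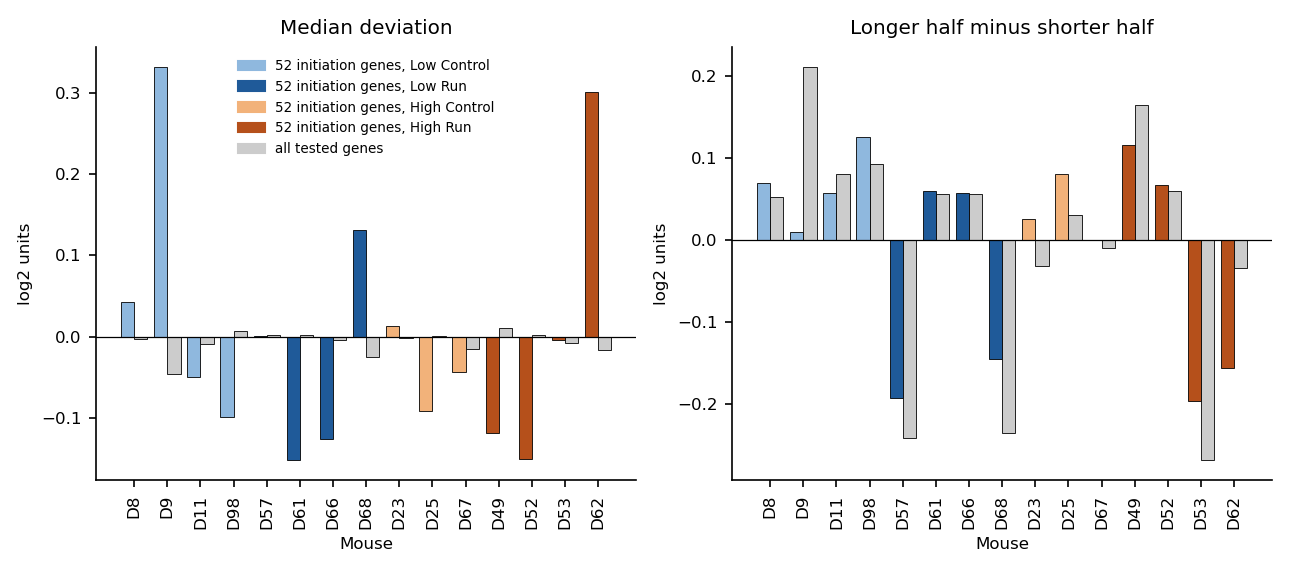
Left, for each mouse, the median over the 52 initiation genes (coloured by group) and over all tested genes (grey) of log2(CPM + 0.5) minus the gene's mean over 15 mice. Right, the same deviation in genes above the median exon length minus that in shorter genes. D9 and D62 stand out on the left at 0.33 and 0.30, and D53, D57 and D68 on the right with all-gene values from -0.27 to -0.24.

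In Low frailty marked mice, no difference in a member with running passed adjustment over all genes. The members with the smallest unadjusted p all had lower levels in Low Run mice, namely the scaffolds Eif4g1 and Eif4g3, the repressor Eif4ebp2 and the amino acid sensing kinase Eif2ak4. Of the 52 members, 0 were called at an FDR of 0.1 when Low Run was tested against Low Control with edgeR's quasi-likelihood fit (0% of all genes), and DESeq2's Wald test also called 0. In all, 9 members had an unadjusted p under 0.05 (17.3%, compared to 13.4% of all genes). At an unadjusted p under 0.05, 8 members were lower in Low Run mice, or 15.4% of the members, compared to 7.52% of all genes. One member was higher, Eif2d, compared to 5.92% of all genes. In 7 members (13.5%) every Low Run mouse lay below every Low Control mouse, compared to 3.84% of all genes, and in 0 members every one lay above (3.08% of all genes). The 7 were Eif2ak4, Eif2b5, Eif4ebp2, Eif4enif1, Eif4g1, Eif4g3 and Eif5. The median log2 fold change was -0.10 over the members and 0.02 over all genes, and it was above 0 for 17 members (32.7%, compared to 51.9% of all genes). Length moved with these values. The median was -0.15 in the longer and -0.05 in the shorter members, split at their own median exon length of 4709.5 bases. It was -0.09 and 0.14 in the longer and shorter of all genes, split at 3833 bases. With offsets for length and GC content there were 5 lower members (9.62%, compared to 7.18% of all genes). Without D9 and D62 there were also 5 lower members (9.62%, compared to 3.65% of all genes). In that setting 32 members lay above 0 (compared to 8722 of 16724 genes) and the median was 0.04. Without D53, D57 and D68 there were 3 lower members (5.77%, compared to 2.11% of all genes). Here 7 members lay above 0 (compared to 8535 of 17174 genes) and the median was -0.20. Without D9 alone there were also 3 lower members (5.77%, compared to 2.4% of all genes).

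The 3 eIF4G genes had log2 fold changes below 0, each with an adjusted p of 0.358 or 0.359 in edgeR's test. Eif4g1, the main eIF4G (ENSMUSG00000045983, chr16:20668313-20692884, plus strand, GRCm38), had 967, 1179.8, 812 and 784 CPM in Low Control and 475, 705, 766 and 501 CPM in Low Run mice. The groups did not overlap, and the lowest Low Run values were those of D57 and D68. The log2 fold change of Eif4g1 was -0.61 (standard error 0.19, 0.653-fold, unadjusted p = 0.00532, adjusted p = 0.358 by edgeR's quasi-likelihood test). It was -0.48 without D9 and D62 (unadjusted p = 0.0218) and -0.35 without D53, D57 and D68 (unadjusted p = 0.0681). Eif4g3, the second eIF4G (chr4:137993022-138208508, plus strand), had 419.5, 593, 301 and 318 CPM in Low Control and 192, 243, 282 and 255.9 CPM in Low Run mice, again without overlap. Eif4g3 differed by a log2 fold change of -0.75 (standard error 0.25, unadjusted p = 0.00835, adjusted p = 0.358), and its unadjusted p was under 0.05 with each of the 8 mice left out in turn and in all 9 alternative settings. Its log2 fold change was smaller in size without D9, at -0.51, and with voom and sample quality weights, at -0.44. Eif4g2, a scaffold that lacks the eIF4E-binding region and serves cap-independent initiation, had 686, 912, 760 and 804 CPM in Low Control and 531, 678, 727 and 577.5 CPM in Low Run mice. Here the groups overlapped, with a log2 fold change of -0.33 (standard error 0.14, unadjusted p = 0.0365), of -0.26 without D9 (unadjusted p = 0.104) and of -0.17 without D53, D57 and D68 (unadjusted p = 0.299) in edgeR's test.

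Eif4e itself did not follow its scaffolds. Its level was 58.6, 42.4, 64.3 and 76.6 CPM in Low Control and 77.2, 67.3, 63.3 and 79.0 CPM in Low Run mice, a log2 fold change of 0.25 with a 95% interval from -0.18 to 0.68. Its lowest values of all 15 mice were those of D9 and D62 (45.2 CPM), the mice in which Eif4g3 was highest. D9 was also highest for Eif4g1 (1179.8 CPM) and Eif4g2 (912 CPM), but D62 was not (715 and 583 CPM). Eif4enif1, the transporter that takes eIF4E into the nucleus and represses mRNAs, had 48.4, 71.6, 42.8 and 43.2 CPM in Low Control and 33.2, 39.7, 38.3 and 32.8 CPM in Low Run mice, without overlap. This was a log2 fold change of -0.52 (standard error 0.19, unadjusted p = 0.0147), -0.32 without D9 (unadjusted p = 0.0716) and -0.40 without D53, D57 and D68 (unadjusted p = 0.0799). Log2 fold changes of genes in the eIF4A family and of the helicase helpers Eif4b and Eif4h were spread widely. They were -0.33 for Eif4a1, -0.16 for Eif4a2, 0.01 for Eif4a3, -0.43 for Eif4b and 0.03 for Eif4h. None had an unadjusted p under 0.05 in edgeR's test. Eif4a1 summed with its pseudogene copy had 107 ± 40.5 CPM (SD) in the 4 Low Control and 84.4 ± 9.74 CPM in the 4 Low Run mice.

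**Figure D3:**
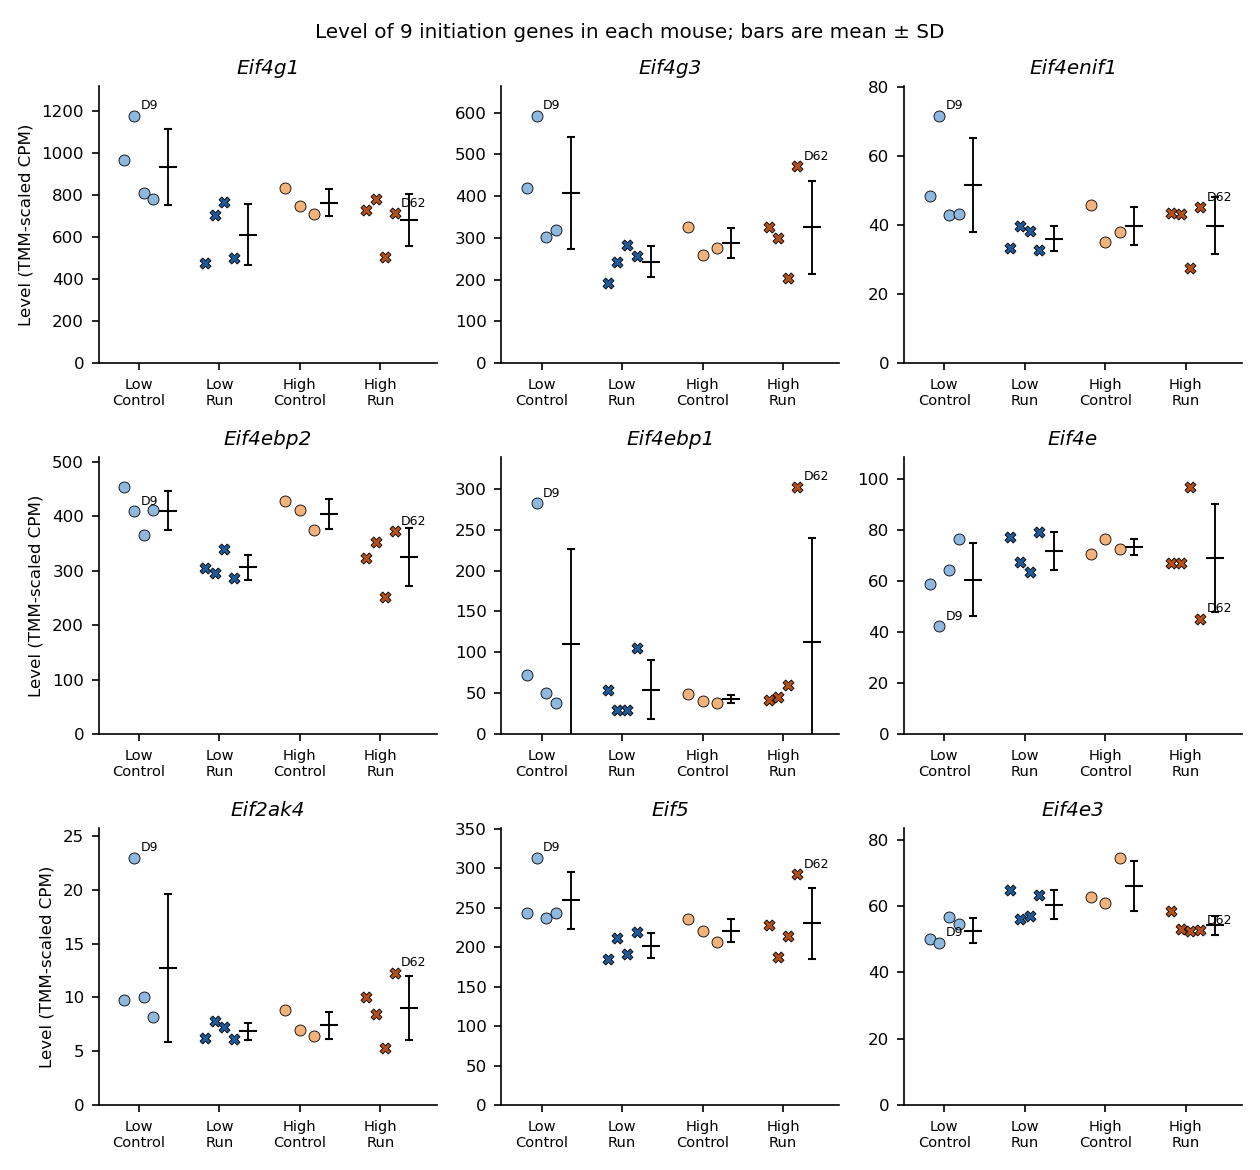
Level in TMM-scaled CPM of 9 initiation genes in each mouse, with circles for sedentary and crosses for run mice, Low groups in blue and High groups in orange, and the mean ± SD beside each group (bars that would pass below 0 stop at the axis). Low Run mice lie below Low Control mice in Eif4g1, Eif4g3, Eif4enif1, Eif4ebp2, Eif2ak4 and Eif5, and mice D9 and D62 carry the high values of Eif4ebp1 (282 and 303 CPM).

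Among the 4E-binding proteins, Eif4ebp2 had a log2 fold change below 0 in both frailty groups, with an unadjusted p of 0.00575 in Low and 0.0501 in High mice in edgeR's test, and the values of Eif4ebp1 turned on 2 mice. Eif4ebp2 (ENSMUSG00000020091, chr10:61428491-61452661, minus strand), the form most abundant in these muscles, had 454, 409, 365 and 412 CPM in Low Control and 304, 295, 339.6 and 286 CPM in Low Run mice. It had 427, 411 and 374 CPM in High Control and 324, 352, 252 and 372.5 CPM in High Run mice. No run mouse of either frailty group reached the lowest sedentary mouse of its group, by a margin of about 1 CPM between High Run mouse D62 and High Control mouse D67. The log2 fold change was -0.42 in Low mice (standard error 0.13, 0.747-fold, unadjusted p = 0.00575, adjusted p = 0.358) and -0.30 in High mice (standard error 0.14, 0.812-fold, unadjusted p = 0.0501, adjusted p = 0.956) in edgeR's test. In a two-sided exact permutation test of the log2 levels, p was 0.0286 in Low mice, the smallest that 4 against 4 mice can give, and 0.0571 in High mice. The Low value kept an unadjusted p under 0.05 with each of the 8 mice left out and in all 9 alternative settings, while the High value, which ranged from -0.39 without D62 (unadjusted p = 0.0168) to -0.20 without D53 (unadjusted p = 0.142), had one under 0.05 with 3 of 7 mice left out and in 5 of 9 alternative settings. The summed muscle fibre markers were likewise lower in every High Run mouse (104640 to 135958 CPM) than in every High Control mouse (142181 to 165494 CPM), and overlapped between the Low groups. Their part in the result was not tested. The interaction was 0.12 with a 95% interval from -0.29 to 0.53, so a difference in response between the frailty groups could not be detected with these mice. Between the 2 control groups the log2 fold change was -0.03 (95% interval from -0.33 to 0.27).

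Eif4ebp1, the binding protein that responds to starvation and is a target of Atf4, had 72.1, 282, 49.6 and 37.9 CPM in Low Control, 53.6, 29.2, 28.8 and 106 CPM in Low Run, 48.5, 41.0 and 38.5 CPM in High Control and 41.6, 45.3, 59.5 and 303 CPM in High Run mice. D9 and D62 stood far above the other mice, of which D68 was highest at 106 CPM, and the groups overlapped in both comparisons. Running went with a log2 fold change of -1.03 (standard error 0.70) in Low and of 1.42 (standard error 0.78) in High mice, and the interaction was 2.45 (standard error 1.05, unadjusted p = 0.0336, adjusted p = 0.600 in edgeR's test). Without D9 and D62 these values were 0.02, 0.20 and 0.17, and the interaction was 1.39 without D9 alone and 1.24 without D62 alone.

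The kinases of eIF2 did not move as a group. Eif2ak4 (GCN2, chr2:118388618-118475234, plus strand), which senses uncharged tRNA, had 9.77, 22.98, 10.0 and 8.19 CPM in Low Control and 6.24, 7.81, 7.23 and 6.11 CPM in Low Run mice, without overlap. In High mice the groups overlapped, with 8.82, 7.00 and 6.44 CPM in High Control and 10.1, 8.45, 5.30 and 12.3 CPM in High Run. The difference on the log2 scale was -0.90 (standard error 0.31, unadjusted p = 0.00978, adjusted p = 0.358) in Low mice and 0.30 (standard error 0.33) in High mice, and the interaction was 1.19 (standard error 0.45, unadjusted p = 0.0178, adjusted p = 0.600). Leaving out D9 alone took the Low value to -0.45 (unadjusted p = 0.0719). Leaving out D9 and D62 gave the same size for it (unadjusted p = 0.0410) and took the interaction to 0.54 (unadjusted p = 0.0856), and without D53, D57 and D68 the Low value was -0.76 (unadjusted p = 0.0647). Eif2ak2 (PKR), the kinase activated by double-stranded RNA, had 2.87, 1.92, 5.09 and 5.30 CPM in Low Control and 5.22, 7.38, 4.93 and 5.16 CPM in Low Run mice, a log2 fold change of 0.59 (standard error 0.29, unadjusted p = 0.0577). It was 0.36 without D9 (unadjusted p = 0.178) and 0.79 without D98 (unadjusted p = 0.0201), and its unadjusted p was under 0.05 with 2 of 8 mice left out and in 2 of 9 alternative settings. Eif2ak1 was at -0.18 (95% interval from -0.42 to 0.06) and Eif2ak3 (PERK), the kinase of the endoplasmic reticulum, at 0.08 (95% interval from -0.30 to 0.46).

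Factors that deliver the initiator tRNA, exchange GTP on eIF2 or select the start codon had few differences in Low mice. Of the 3 subunits of eIF2, Eif2s1 had a log2 fold change of 0.08, Eif2s2 of -0.06 and Eif2s3x of -0.23, none with an unadjusted p under 0.05. Eif2d, which can place a tRNA without GTP, had 24.4, 20.2, 26.6 and 26.5 CPM in Low Control and 33.8, 29.0, 26.0 and 29.0 CPM in Low Run mice (log2 fold change 0.27, standard error 0.12, unadjusted p = 0.0385), and 0.19 without D9 (unadjusted p = 0.118). The 5 subunits of eIF2B lay between -0.20 and 0.26. Eif2b5, its catalytic subunit, did not overlap between groups, with 76.3, 93.1, 78.0 and 76.5 CPM in Low Control and 75.0, 74.4, 72.4 and 74.9 CPM in Low Run mice, but the difference was small at -0.13 (95% interval from -0.39 to 0.14). The 5 members whose symbol begins with Eif1 lay between -0.17 and 0.07. Among them Eif1, the highest member per kilobase, was at -0.17 and Eif1ax, an eIF1A gene on the X chromosome, at -0.08. Eif5, the activator of GTP hydrolysis on eIF2, had 243, 313, 237 and 243 CPM in Low Control and 185.5, 212, 192 and 219 CPM in Low Run mice, without overlap, for a log2 fold change of -0.36 (standard error 0.15, unadjusted p = 0.0283, adjusted p = 0.358) and -0.26 without D9 (unadjusted p = 0.0948) or without D9 and D62 (unadjusted p = 0.0310). It was -0.30 with length and GC offsets (unadjusted p = 0.0718) and -0.36 without D53, D57 and D68 (unadjusted p = 0.0823). Of the late factors, Eif5a was at 0.16 (95% interval from -0.13 to 0.46), Eif5b, which joins the large subunit, was at -0.05, and Eif6, which keeps the subunits apart, had a 95% interval from -0.43 to 0.42.

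The 14 genes of eIF3, the largest initiation factor, were lower in Low Run mice by the log2 fold change in 10 cases and higher in 4 (51.9% of all genes were higher). Only Eif3a had an unadjusted p under 0.05 in edgeR's test. Eif3a, its RNA-binding scaffold, had 240.1, 501, 200.2 and 186 CPM in Low Control and 182, 183, 180.3 and 206.5 CPM in Low Run mice, a log2 fold change of -0.59 (standard error 0.28, unadjusted p = 0.0496). Mouse D9 stood far above the other 7 mice, which overlapped, and without D9 and D62 the value was -0.16 (unadjusted p = 0.206). Without these 2 mice, 11 of the 14 eIF3 genes lay above 0 in place of 4 (compared to 8722 of 16724 genes). Without D53, D57 and D68 none did (compared to 8535 of 17174 genes).

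In High frailty marked mice, log2 fold changes with running lay between -0.30 for Eif4ebp2 and 1.42 for Eif4ebp1. Neither edgeR (0% of all genes) nor DESeq2 called any of the 52 members at an FDR of 0.1 for High Run vs. High Control, so the count was 0. At an unadjusted p under 0.05 there was 1 member (5.18% of all genes), which was lower (1.9% of all genes), and 0 members were higher (3.28% of all genes). In 2 members, Eif4e3 and Eif4ebp2, the run mice were all below the sedentary mice (3.91% of all genes), and in 0 they were all above (3.2% of all genes). The log2 fold change was above 0 for 41 members (78.8%, compared to 57.2% of all genes), with a median of 0.08 over the members and 0.05 over all genes. Without D9 and D62, 21 members lay above 0 (compared to 8737 of 16724 genes) and the median was -0.02. Without D53, D57 and D68, 37 did (compared to 9700 of 17174 genes) and the median was 0.10. The lower members numbered 2 without D9 and D62 (2.64% of all genes) and 0 without D53, D57 and D68 (2.66%). In eIF3 all 14 genes had a log2 fold change above 0 (compared to 57.2% of all genes), up to 0.30 for Eif3a. Without D9 and D62, 6 had one (compared to 8737 of 16724 genes).

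Eif4e3, an eIF4E relative that binds the cap without the usual pocket, was the member with an unadjusted p under 0.05. It had 62.6, 60.9 and 74.6 CPM in High Control and 58.6, 53.2, 52.4 and 52.6 CPM in High Run mice, a log2 fold change of -0.27 (standard error 0.12, unadjusted p = 0.0337, adjusted p = 0.956 in edgeR's test; two-sided exact permutation p = 0.0286, the smallest that 3 against 4 mice can give). As given for Eif4ebp2, the summed muscle fibre markers also did not overlap between these groups and were lower in High Run mice. In Low mice Eif4e3 had 50.1, 48.9, 56.8 and 54.6 CPM in Low Control and 64.9, 56.2, 56.97 and 63.2 CPM in Low Run, overlapping between groups, a log2 fold change of 0.20 (95% interval from -0.03 to 0.43). The difference between these responses, the Frailty × Run interaction, was -0.47 (standard error 0.16, unadjusted p = 0.00962, adjusted p = 0.600). It was -0.43 without D9 and D62 (unadjusted p = 0.0150), -0.37 without D53, D57 and D68 (unadjusted p = 0.0560), and had an unadjusted p under 0.05 with each of the 15 mice left out. Without High Control mouse D67 alone, the value in High mice was -0.18 (unadjusted p = 0.199), and its unadjusted p was 0.0588 without D52 and 0.0529 without D53. The other eIF4E relative, Eif4e2, had a log2 fold change of 0.02 in Low and an interval from -0.26 to 0.26 in High mice.

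**Figure D4:**
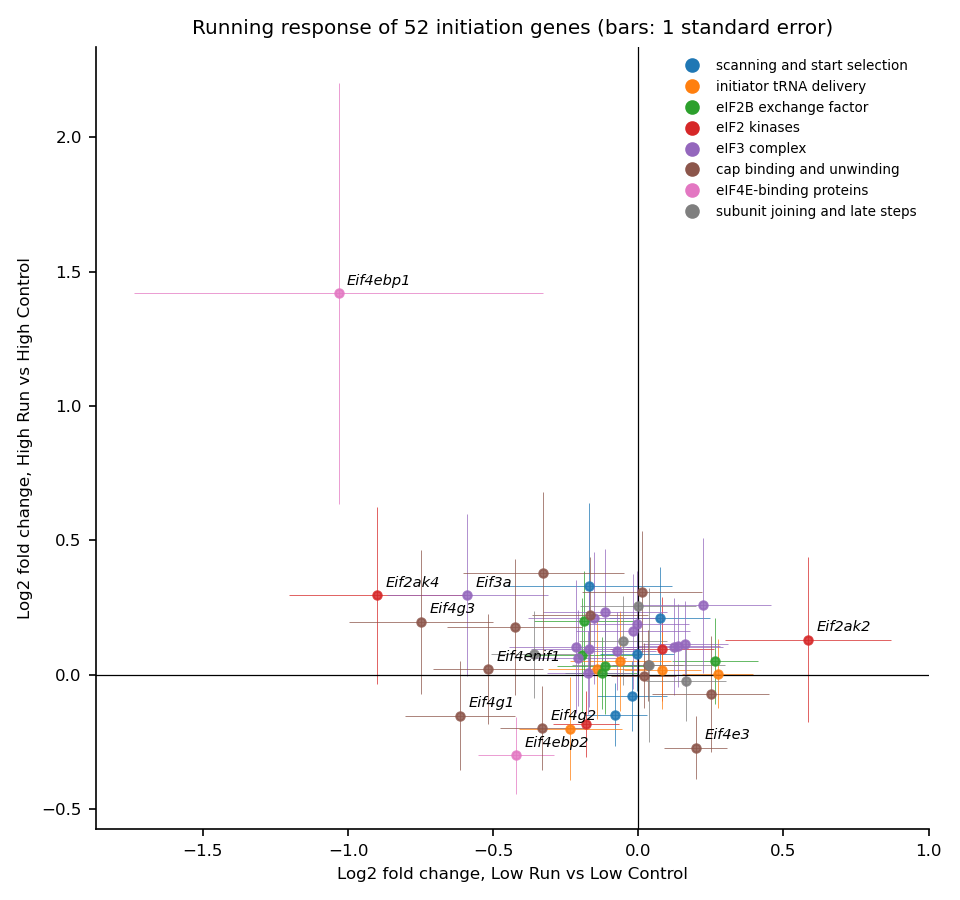
Log2 fold change of each of the 52 initiation genes in Low Run vs. Low Control (horizontal axis) and High Run vs. High Control (vertical axis), coloured by role, with bars of 1 standard error. Eif4g1, Eif4g2 and Eif4ebp2 lie left of and below 0 on both axes, Eif4e3 lies to the right of and below 0, and Eif4ebp1 lies far from the rest at -1.03 and 1.42 with long bars.

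The Frailty × Run interaction asked whether the running response differed between frailty groups. At an FDR of 0.1, 0 members were called by edgeR (0% of all genes) or DESeq2, and 5 had an unadjusted p under 0.05 (7.93% of all genes). Of these, 4 members had a higher response in High mice (7.69%, compared to 5.24% of all genes), namely Eif2ak4, Eif3a, Eif4ebp1 and Eif4g3, and 1 had a lower one, Eif4e3 (2.69% of all genes). Eif4g3 had 327, 258 and 275 CPM in High Control and 327, 299, 203.5 and 472 CPM in High Run mice, and an interaction of 0.95 (standard error 0.37, unadjusted p = 0.0201). Eif3a had an interaction of 0.89 (standard error 0.41, unadjusted p = 0.0460). Without D9 and D62, 0 members had a higher response at an unadjusted p under 0.05 (2.68% of all genes), and Eif4g3 was at 0.46 and Eif3a at 0.19. The interaction was above 0 for 38 members (53.1% of all genes) with a median of 0.15. Without D9 and D62 it was above 0 for 15 members (compared to 8378 of 16724 genes) with a median of -0.06. Without D53, D57 and D68 it was above 0 for 43 members (compared to 9096 of 17174 genes) with a median of 0.29. In that setting 3 members had a higher response at an unadjusted p under 0.05 in edgeR's test (4.79% of all genes). For Eif4g1 the interaction was 0.46 with a 95% interval from -0.13 to 1.06, so the lower Eif4g1 of Low Run mice was not shown to be particular to the Low group.

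The sedentary groups, High Control vs. Low Control, addressed the difference with frailty in the absence of running. They share their mice with the comparisons above. At an FDR of 0.1, edgeR (0% of all genes) and DESeq2 called 0 members, and 2 had an unadjusted p under 0.05 (5.86% of all genes), 1 higher (1.8%) and 1 lower (4.06%). The log2 fold change was above 0 for 14 members (47.2% of all genes) with a median of -0.10. Without D9 and D62 it was above 0 for 26 members (compared to 8048 of 16724 genes) with a median of 0.00. Without D53, D57 and D68 it was above 0 for 14 members (compared to 8103 of 17174 genes). The higher member was Eif4e3, at 66.03 ± 7.45 CPM (SD) in the 3 High Control and 52.6 ± 3.701 CPM in the 4 Low Control mice. This was a log2 difference of 0.32 (standard error 0.12, unadjusted p = 0.0145, adjusted p = 0.704 in edgeR's test), with no overlap between the groups, and it was 0.29 without D9 and D62 and 0.22 without D67 (unadjusted p = 0.107). The lower member was Eif2ak4 at -0.79 (standard error 0.33, unadjusted p = 0.0307), which was -0.33 without D9 and D62 (unadjusted p = 0.137). Eif2b2, a regulatory subunit of eIF2B, and Eif2d also lay higher in every High Control mouse (3 members, compared to 5.2% of all genes), and Eif5 lower in every one (1 member, compared to 5.26% of all genes). Between the run groups, High Run vs. Low Run, 0 members had an unadjusted p under 0.05 in either direction in edgeR's test (2.51% of all genes, 1.52% higher and 0.987% lower), and 0 were called at an FDR of 0.1 by edgeR (0% of all genes) or DESeq2. In 0 members did these groups not overlap (0.656% of all genes higher and 0.81% lower), and 35 lay above 0 (52.2% of all genes), with a median of 0.04. Without D9 and D62 the direction turned, with 14 members above 0 (compared to 8034 of 16724 genes) and a median of -0.05. Without D53, D57 and D68 there were 42 (compared to 8951 of 17174 genes) and the median was 0.15. The largest difference was that of Eif4ebp1 at 1.06 (95% interval from -0.43 to 2.56), which was -0.16 without D62 and 2.18 without D53, D57 and D68 (unadjusted p = 0.0479 in edgeR's test).

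**Figure D5:**
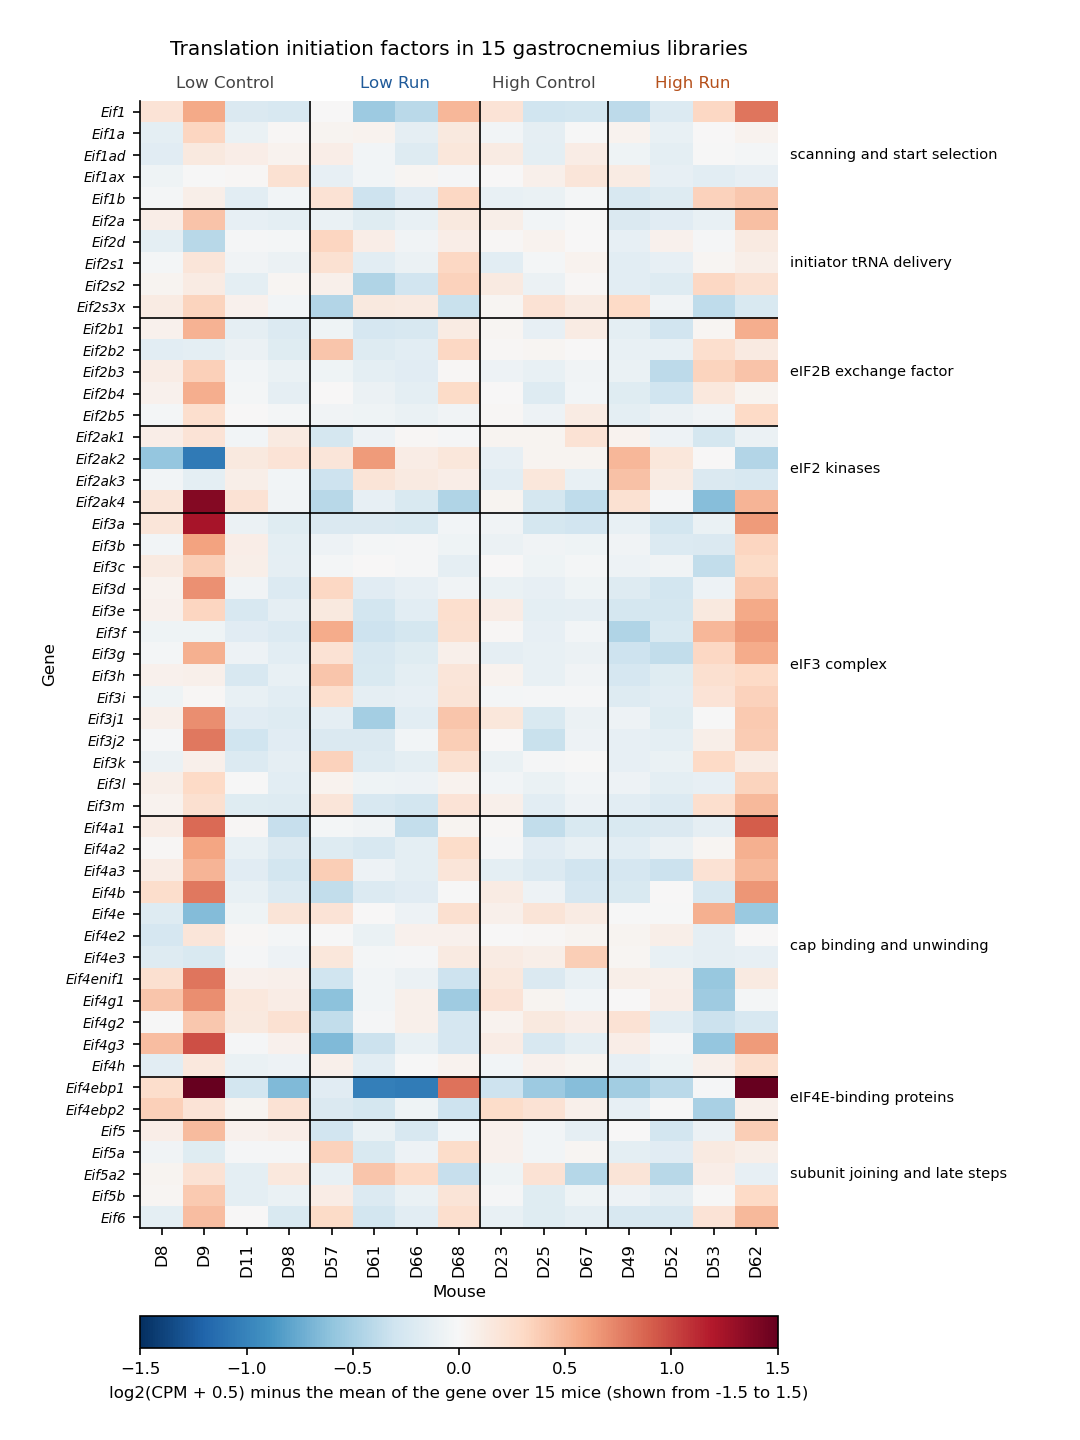
Level of each of the 52 initiation genes (grouped by role) in each of the 15 mice (grouped as labelled), as log2(CPM + 0.5) minus the gene's mean over all mice, red above and blue below that mean. D9 and D62 are red in most roles, while Eif4e is blue in both, and Eif4g1, Eif4g2 and Eif4enif1 are blue in D53, D57 and D68.

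Genes around the initiation factors were read from 3 lists. The lists were chosen with earlier results of these data known, so their counts only describe. Of 40 helpers and regulators of initiation, all tested, 15 had an unadjusted p under 0.05 and a lower level in Low Run than in Low Control mice (compared to 7.52% of all genes), and 0 had a higher one. The median log2 fold change of the list was -0.14, compared to 0.02 over all genes. Among them Ddx3x, a helicase that opens structured leaders, had a log2 fold change of -0.86 (standard error 0.27, unadjusted p = 0.00616), Gigyf2, a partner of Eif4e2 in repression, had -0.57 (standard error 0.21) and Mknk2, a kinase of eIF4E, had -0.85 (standard error 0.37). Ppp1r15a and Ppp1r15b, the subunits that direct phosphatase to eIF2, had -1.52 (standard error 0.63) and -0.84 (standard error 0.31). The highest value of these 5 genes over all 15 mice was that of D9, and without D9 and D62 the count of lower helpers was 4 of 40 (10.0%, compared to 3.65% of all genes). Without D53, D57 and D68 it was 2 (5.0%, compared to 2.11% of all genes). In High mice 0 of the 40 were past this limit in either direction, compared to 5.18% of all genes. In these mice 1 helper was lower without D9 and D62 (2.5%, compared to 2.64% of all genes). Without D53, D57 and D68, 1 was higher (2.5%, compared to 4.12%). Of 27 tested targets of the integrated stress response, 3 had an unadjusted p under 0.05 in edgeR's test and a lower level in Low Run mice (compared to 7.52% of all genes). These were Vldlr at -1.08 and both Ppp1r15 genes, which are also counted among the 15 helpers above. At the same limit 1 had a higher level in High Run mice, Pck2 at 0.44 (compared to 3.28% of all genes). The lower count in Low Run mice was 2 without D9 and D62 (3.65% of all genes) and 1 without D53, D57 and D68 (2.11%). The higher count in High Run mice was 1 without D9 and D62 (4.21% of all genes) and 0 without D53, D57 and D68 (4.12%). Atf4, the transcription factor at its centre, had 211, 414, 128 and 132 CPM in Low Control, 125, 114, 124 and 207 CPM in Low Run, 189, 110.2 and 130 CPM in High Control and 121, 120.2, 163 and 326 CPM in High Run mice, highest in D9 and D62 as Eif4ebp1 was. Of 16 elongation and termination factors, 0 had an unadjusted p under 0.05 in Low mice (compared to 13.4% of all genes), 1 was lower without D9 and D62 (6.25%, compared to 3.65%) and 0 without D53, D57 and D68. With all mice, Gspt1, a release factor, was at -0.29 (unadjusted p = 0.0507) and Eefsec, the elongation factor for selenocysteine, at 0.30 (unadjusted p = 0.0783) in edgeR's test. Eef1a1, the elongation factor more typical of non-muscle cells and immature muscle, was the 1 with a higher level in High Run mice (compared to 3.28% of all genes), with 227, 253 and 244 CPM in High Control and 298.5, 338, 419 and 336 CPM in High Run (log2 fold change 0.54, standard error 0.17, unadjusted p = 0.00627, adjusted p = 0.956 in edgeR's test). Its log2 fold change was 0.55 without D9 and D62 and 0.44 without D53, D57 and D68, and the summed muscle fibre markers, as given above, were lower in every High Run than in every High Control mouse. No gene of the 3 lists passed an FDR of 0.1 in any of these comparisons.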

How the data were processed

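Gastrocnemius polyA RNA of 15 mice was sequenced, 1 mouse per library. The authors used STAR 2.7.9a on mm10, then featureCounts on uniquely aligned proper pairs and non-mitochondrial Ensembl genes, and the deposited count table holds whole, unnormalized counts (the submitters' processing notes list Subread 2.0.3). A deposited variance-stabilized version of the counts was not used here. GENCODE M21 (GRCm38) supplied coordinates, exon lengths and symbols (found for 55190 of 55450 gene IDs), and promoters from RefSeq on GRCm38.p6.

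Tests used edgeR 4.0.16 under R 4.3.3 (filterByExpr, TMM, quasi-likelihood test, 1 mean per group, all 15 mice in the fit), with Benjamini-Hochberg adjustment over 16920 genes and an FDR of 0.1. An unadjusted p under 0.05 was used only to describe. Standard errors are the log2 fold change divided by the root of the F statistic, and 95% intervals use the test's degrees of freedom. Exact permutation tests were run on log2(CPM + 0.5). Tables were made in Python 3.11.15. The p-values measure the spread between mice. Total counts per mouse and the number of mice set the precision, and no molecular identifiers were used.

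The genes named were, per comparison, the 6 members with the smallest unadjusted p under 0.05, the eIF2 kinases and eIF4E-binding proteins, the 5 highest and 5 lowest members per kilobase, those next to the count limit, a reference gene per factor, and the 3 genes of each list with the smallest p in a running comparison. Other genes were named after their values were seen. The members, roles and lists were chosen with earlier results of these data known. Alternatives were DESeq2 1.42.0 (Wald test), voom with sample quality weights (limma 3.58.1), RLE normalization, every counted gene kept, a minimum of 10 counts in each mouse, only the 2 groups compared, offsets for length and GC content (loess, span 0.3), and each mouse left out in turn. Leaving out D9 with D62, and D53 with D57 and D68, was added after seeing the data. Correlations among members were not computed across mice, because D9 and D62 formed a separate cluster. Only the edgeR fit was tested on simulated counts, with changes set larger than most of the differences given here. The other methods were not tested in this way. No column of sample values was left out (0).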

Additional observations from a re-analysis of the deposited data

Results flagged for a closer look

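In the 3 groups of 4 mice, the mouse farthest from the others was compared with the spread of its group for each of the 52 initiation genes, and 17 of 156 such tests passed Dixon's 95% limit (10.9%), where chance gives about 1 in 20 and 7.66% of the same tests over all tested genes passed. Over all genes, D9 was the mouse past the limit in 7.08% of the tests of its group and D62 in 4.33%, and the other 10 mice in 2.16% or less. Low Control mouse D9 stood above its group in 6 genes, with 22.98 CPM of Eif2ak4 (8.19 to 10.0 CPM in the other 3), 93.1 CPM of Eif2b5, 501 CPM of Eif3a (186 to 240.1 in the others), 123 CPM of Eif3g, 282 CPM of Eif4ebp1 (37.9 to 72.1 in the others) and 313 CPM of Eif5. High Run mouse D62 stood above its group in 5, with 94.5 CPM of Eif2a, 331 CPM of Eif3a, 97.2 CPM of Eif3l, 49.9 CPM of Eif4a1 (22.3 to 23.8 in the others) and 303 CPM of Eif4ebp1 (41.6 to 59.5 in the others). Eif3a and Eif4ebp1 were thus the genes in which both of these mice stood apart from their own groups.

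The remaining 6 were spread over 4 mice. Low Run mouse D68 had 206.5 CPM of Eif3a and 448 CPM of Eif4a2, and Low Run mouse D61 had 7.38 CPM of Eif2ak2 (4.93 to 5.22 in the others). High Run mouse D49 had 150.7 CPM of Eif1ax and 58.6 CPM of Eif4e3, each above the other 3 mice of its group. High Run mouse D53 had 27.5 CPM of Eif4enif1, below the 43.2 to 45.1 CPM of the others. The cause of these differences was not tested.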

How the results depend on the processing

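No member passed an FDR of 0.1 under any alternative. Of 480 alternative values of the 27 named fold changes, 382 kept their direction and their side of an unadjusted p of 0.05, 80 lost it, 14 gained it and 4 changed sign: Eif4ebp1 in Low mice to 0.0253 without D9 and 0.0249 without D9 and D62, and in High mice without D49, Eif2ak2 to -0.0459 and Eif2ak3 to -0.0682. Over each mouse left out these fold changes ranged from -1.60 to 0.0253, -0.0459 to 0.276 and -0.0682 to 0.218. No paired analysis was possible because no mouse number is shared between groups.

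Counts here are of members at an unadjusted p under 0.05. Lower members in Low Run mice went from 8 to 5 with length and GC offsets and without D9 and D62, and to 3 without D53, D57 and D68, while the share of all genes went from 7.52% to 7.18%, 3.65% and 2.11%. Higher members went from 1 to 2 with length and GC offsets, and to 0 with voom, with only the 2 groups, without D9 and D62, and without D53, D57 and D68. The share of all genes higher in Low Run mice went from 5.92% to 4.41%, 4.39%, 4.52%, 3.68% and 3.5% in that order. In High Run mice, lower members went from 1 to 2 with DESeq2, voom, RLE and without D9 and D62. Their count was 3 with length and GC offsets, and 0 with no filter, with only the 2 groups, and without D53, D57 and D68. Higher members in High Run mice went from 0 to 1 with no filter (3.28% of all genes, then 3.44%). The share of all genes lower in High Run mice, 1.9%, lay between 1.21% with DESeq2 and 5.57% with voom. For the interaction, higher members went from 4 to 2 with voom or length and GC offsets and to 0 without D9 and D62. The share of all genes was 5.24%, then 5.92%, 4.13% and 2.68%. Lower members of the interaction went from 1 to 0 without D53, D57 and D68 (2.69% of all genes, then 2.66%). Its median went from 0.15 to -0.0400 with voom and -0.0605 without D9 and D62. Between controls, lower members went from 1 to 2 with DESeq2, 4 with no filter, and 0 with only the 2 groups or without D9 and D62. The share of all genes lower was 4.06%, then 2.39%, 3.52%, 4.23% and 2.39%. Higher members between controls went from 1 to 0 with no filter (1.8% of all genes, then 1.91%). Between run groups, higher members went from 0 to 1 with no filter and without D53, D57 and D68 (1.52% of all genes, then 2.36% and 1.85%). The cause was not tested.

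When single mice were left out, lower members in Low Run mice ranged from 3 (without D9, 2.4% of all genes) to 9 (9.55% without D11). Higher members ranged from 0 (4.67% of all genes without D8) to 2 (6.35% without D11), and the median from -0.15 to 0.04 (without D9). In High Run mice lower members ranged from 0 (without D53, 2.53% of all genes) to 2 (without D62, 1.44%) and the median from -0.02 (without D62) to 0.15. For the interaction, higher members ranged from 2 (without D9, 2.85% of all genes, and without several other mice) to 7 (without D98, 7.55%). The median of the interaction ranged from 0.05 to 0.25. Between controls, lower members ranged from 0 (without D9, D25 or D67) to 4 (without D11 or D98). The share of all genes lower was 1.75%, 2.02% and 1.75% without D9, D25 and D67, and 5.82% and 7.02% without D11 and D98. Higher members between controls ranged from 0 (without D67, 1.4% of all genes) to 1 (1.8% with all mice), and the median from -0.16 to 0.00. Between run groups, higher members ranged from 0 to 1 (without D52 or D53, 1.44% and 3.43% of all genes) and the median from -0.05 to 0.10.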
